A study of Mus musculus with 4 samples.

Results

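The 9 genes described here encode enzymes that store and release glycogen and subunits of the AMP-activated protein kinase (AMPK). They were chosen by name: Pygm, Phka1, Phkg1, Gys1 and Gbe1 for glycogen, and Prkaa1, Prkaa2, Prkag1 and Prkag3 for AMPK. They are 9 of the 12843 genes that could be named among the transcripts assembled in mouse C2C12 cells, and each of the 9 was assembled, at least in pieces, in all 4 libraries. A gene was recognised by matching runs of intron and exon lengths in its transcripts to a mouse annotation.

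C2C12 cells are mouse myoblasts of skeletal muscle: they divide in rich serum and, when serum is lowered at confluence, leave the cell cycle and fuse into myotubes. The labels give its strain as C57BL/6, and no genotype change or added agent separates the samples. Polyadenylated RNA was taken once during exponential growth in high serum medium (-24 h, called growth below) and then 60 h, 120 h and 168 h after the change to low serum medium. The series follows this time course, and each later library is compared with the one before it, as is the last, 168 h, with growth, which makes 4 comparisons. There was 1 library at each time, so no difference below has a replicate check and no p-value is given. Time, passage and culture cannot be told apart.

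Glycogen is the glucose store that muscle fibres draw on in contraction. Glycogen synthase lengthens its chains and the branching enzyme makes their branch points. Glycogen phosphorylase releases glucose 1-phosphate after it is switched on by phosphorylase kinase, a calcium-sensitive complex of alpha, beta, gamma and calmodulin subunits. AMPK senses low energy: a catalytic alpha, a scaffolding beta that binds glycogen and a nucleotide-binding gamma subunit form the enzyme, which phosphorylates glycogen synthase among many substrates. Several of these proteins come as a muscle form and a form found in other tissues, each from its own gene.

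From growth to 168 h the depths were 28513976, 48228886, 24488681 and 43845262 fragments, with the lowest at 120 h. Levels are in FPKM, the fragments of a transcript divided by its length in kilobases and by the depth of the library, summed over a gene's assembled transcripts. The ± is the distance to the deposited confidence limit. At a locus with a single transcript that limit lies 2 square roots of the fragment count away. At loci with several transcripts it could be wider than that, as for Gbe1 and Prkag1 in growth. The ± does not cover differences between cultures. A difference was called where the higher library had 1 FPKM or more, the log2(FPKM + 1) values lay 2-fold or more apart and the intervals did not overlap. On that scale ratios of low genes are understated. The sum counts a gene once for each consecutive piece into which it was assembled, so 2 further values were computed for each gene: the FPKM through the introns, for which the transcripts spanning each intron are added and the median of a gene's introns is taken, and the FPKM over the union of its exons. The 120 h library held more transcripts per named gene than the others, and the sum called 12.4% of all genes higher at 120 h than at 60 h, against 2.14% over the union of exons. Skeletal muscle markers summed to 706, 9555, 13197 and 12610.1 FPKM in time order, with Tnnt3 listed at 0 in the growth and 120 h libraries. Acta1 alone had 7219 FPKM at 168 h. Against growth, Myod1 was called lower there, with 86.1 against 193 FPKM, Myf5 was not called and the others were called higher. Smooth muscle markers summed to 325, 163, 141 and 88.8 FPKM. Of them Actg2 fell from 251 FPKM in growth to 3.85 FPKM at 168 h and Cnn1 from 43.5 to 1.53 FPKM. Smtn went the other way, from 30.7 to 83.4 FPKM, called higher by the sum and over the union of exons. Of 5 adipocyte markers 0 to 1 were assembled, with a sum of at most 0.750 FPKM, while markers of macrophages and blood cells summed to 1.14, 5.06, 5.11 and 4.94 FPKM and those of endothelium to 1.20, 5.67, 10.4 and 6.02 FPKM in time order. Among these, Ptprc, Adgre1, Pecam1 and Kdr were at 0 throughout. Cd68 was called higher at 168 h, with 4.41 FPKM against 0.308 FPKM in growth, by all 3 measures, and Vwf, with 5.72 FPKM against 0, by the sum alone. The part of any of these cell types in the results was not tested.

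At 60 h, 4 of the 9 genes were called higher than in growth and 0 lower: Pygm, Gys1, Phka1 and Prkag3. Over all 12523 genes compared, 11.0% were called higher and 15.4% lower. Of the other 5 members, Prkaa1, Prkag1 and Phkg1 had lower values at 60 h than in growth, by less than the 2-fold limit. The median log2 ratio of the 9 was 0.50, beside -0.19 over all genes. At 168 h against growth the same 4 genes and Prkaa2 were called higher, 5 of 9 with 0 lower, where 15.5% of all genes were called higher and 18.5% lower. The median there was 1.30 for the 9 genes and -0.11 for all genes. These 2 comparisons share the growth library. Through the introns 5 members were called higher at 60 h and 5 at 168 h than in growth, where 13.7% and 18.0% of all genes were. Over the union of exons it was 4 and 5 members, where 11.1% and 14.7% of all genes were.

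**Figure D1:**
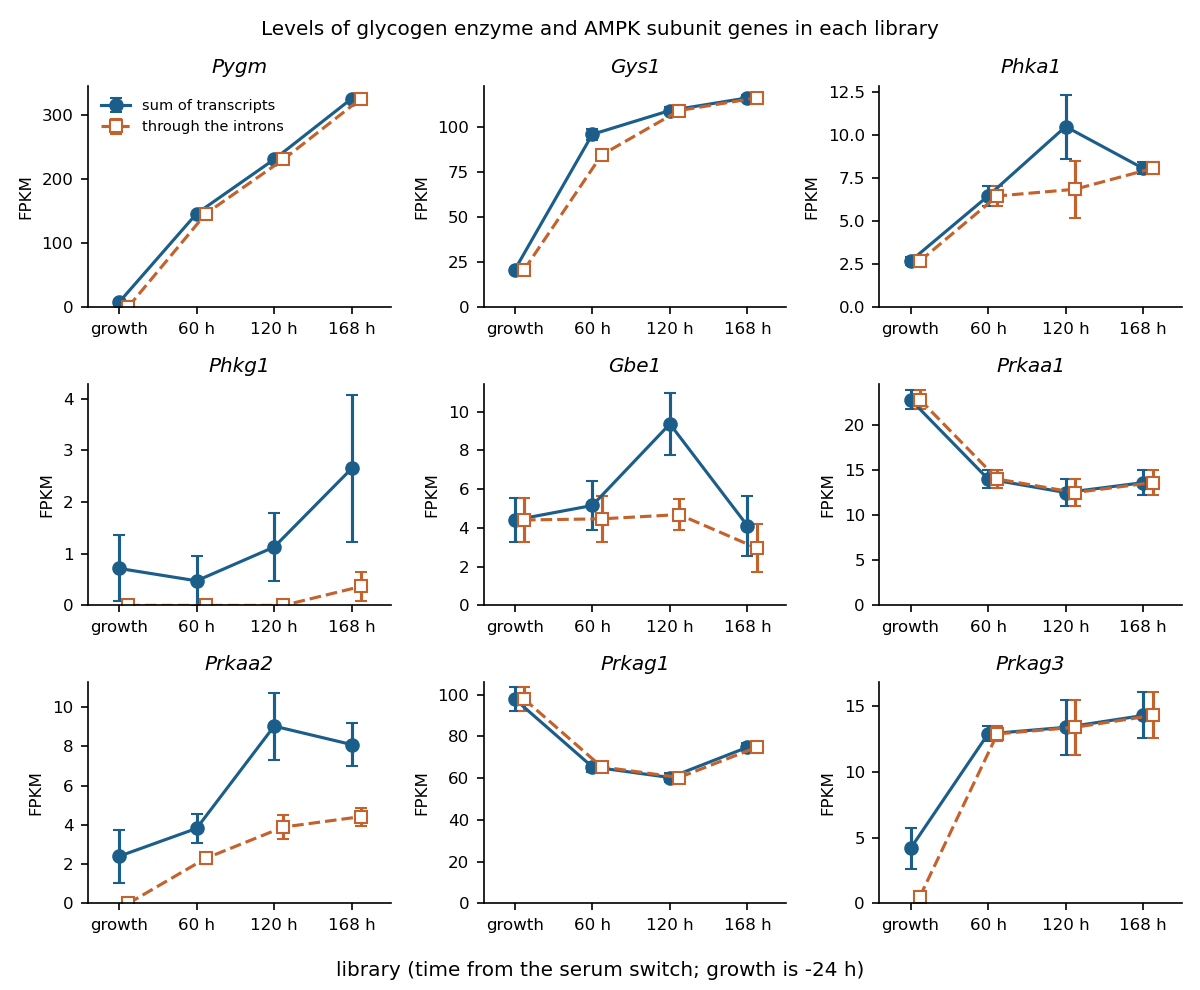
FPKM of each of the 9 genes (vertical axis, from 0, each panel with its own scale) in the growth, 60 h, 120 h and 168 h libraries. Filled circles are sums over transcripts and open squares the FPKM through the introns, with bars to the confidence limits. The 2 measures part for Pygm (7.87 by the sum and 0.904 FPKM through the introns) and Prkag3 in growth, for Prkaa2 and Phkg1 in every library, for Gys1 at 60 h, for Gbe1 in the 3 later libraries and for Phka1 at 120 h.

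Pygm encodes muscle glycogen phosphorylase, the enzyme that cleaves glucose units from glycogen. It lies on chromosome 19 from base 6384380 to base 6398461, plus strand (coordinates as in the files, with their build not given in the sources). Pygm had 7.87 ± 2.97 FPKM in growth, 146 ± 2.05 FPKM at 60 h, 230.4 ± 3.63 FPKM at 120 h and 325 ± 3.22 FPKM at 168 h. No interval overlapped another, and each later library was above the one before. The sum was 18.6-fold higher at 60 h than in growth, with a log2 ratio of 4.06, and 41.3-fold higher at 168 h than in growth, with a log2 ratio of 5.20. The later steps were 1.57-fold at 120 h against 60 h and 1.41-fold at 168 h against 120 h, neither past the 2-fold limit. By 168 h Pygm had the highest level of the 9 genes by the sum, and in growth it was below Prkag1, Prkaa1 and Gys1.

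The growth value of Pygm rested on 67.0 fragments in 6 pieces, whereas 20446, 16151 and 40805 fragments at 60 h, 120 h and 168 h gave 1 transcript of 20 exons each. The pieces covered 11 of the 19 introns. The highest of them was a stretch of 75 bases at 3.27 ± 2.47 FPKM, which made up 41.6% of the sum. Through the introns Pygm had 0.904 FPKM in growth and over the union of exons 0.798 ± 0.195 FPKM, so 60 h was 162-fold and 180.4-fold higher by these measures, and 168 h was 359-fold and 396-fold higher. The direction and the calls were the same by all 3 measures, and the size of the fold rested on how the growth pieces were counted.

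**Figure D2:**
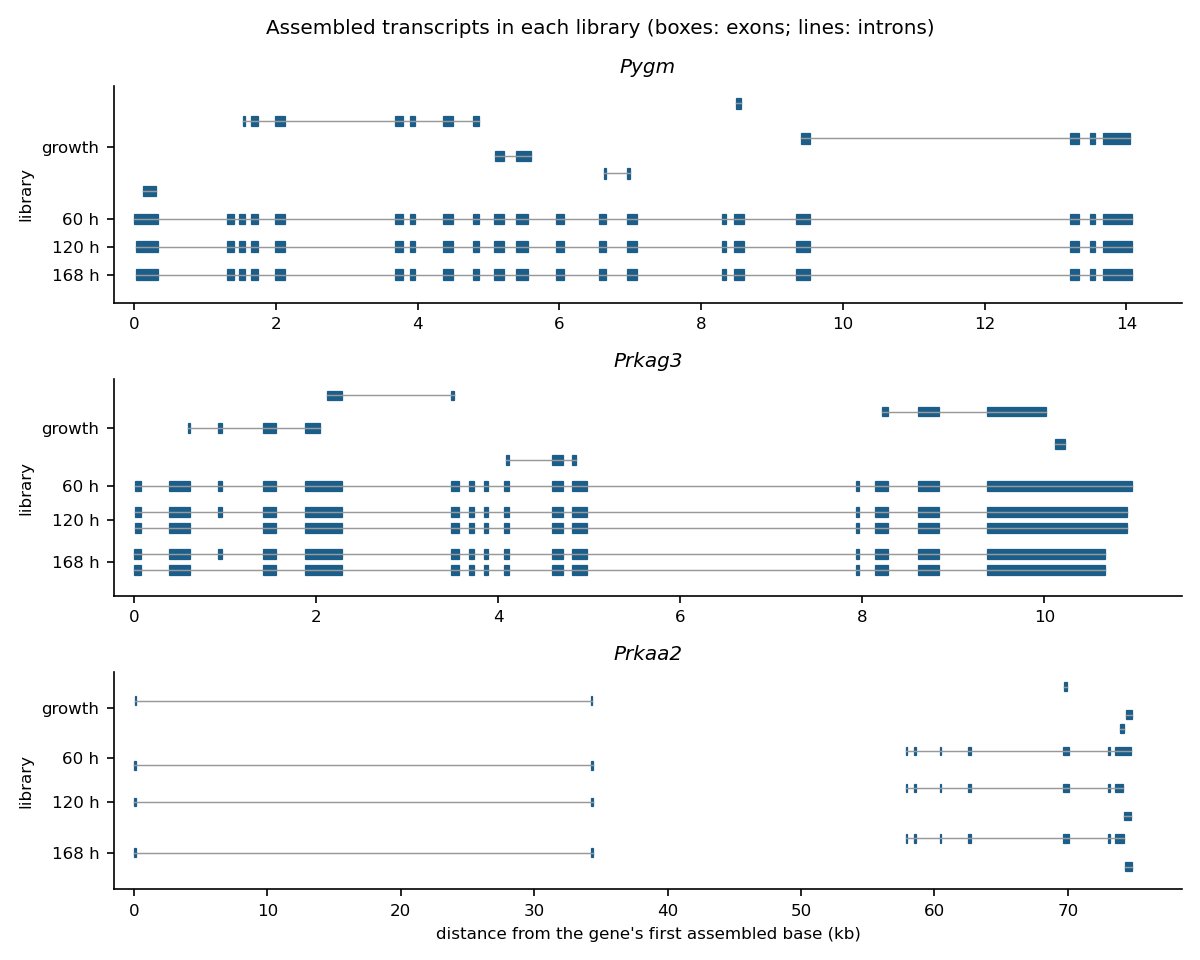
Assembled transcripts of Pygm, Prkag3 and Prkaa2 by library (vertical axis) along the distance from the gene's first assembled base (horizontal axis, kb), with exons as boxes and introns as lines. Pygm and Prkag3 were in 6 and 5 pieces in growth and in whole transcripts of 20 and up to 15 exons later, and Prkaa2 never joined its 2-exon and 7-exon parts.

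The share of Pygm among the glycogen phosphorylase genes was 20.5% in growth by the sum (2.61% over the union of exons), 90.6% at 60 h, 92.4% at 120 h and 93.3% at 168 h. The remainder was Pygb, the brain form, which had 30.6 ± 1.05, 15.3 ± 0.570, 19.0 ± 0.885 and 23.4 ± 0.737 FPKM in time order and was called in none of the 4 comparisons. No transcript was named Pygl, the liver form, in any library. Of sampled 50-base words of Pygm, 0.353% also occurred in another gene, Pygb. Words of Pygb were not sampled, and how much of either value came from shared sequence was not tested. Pygb was thus the larger phosphorylase gene in growth and Pygm in all 3 later libraries.

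Phosphorylase kinase activates glycogen phosphorylase. Its alpha subunit, a regulatory one, has a muscle form, Phka1, on the X chromosome from base 99709328 to base 99839577 on the minus strand. Phka1 had 2.69 ± 0.250 FPKM in growth, 6.47 ± 0.553 FPKM at 60 h, 10.5 ± 1.86 FPKM at 120 h and 8.07 ± 0.348 FPKM at 168 h. The growth library was below the other 3, of which 120 h was highest, and no intervals overlapped. At 60 h the level was 2.40-fold that of growth (log2 ratio 1.02, called), which lay at the limit of the rule: over the union of exons the ratio was 2.37-fold and just missed it. At 168 h against growth the log2 ratio was 1.30, called by all 3 measures. The 120 h sum held a piece of 1 exon and 776 bases at 3.63 ± 0.874 FPKM beside the longer transcripts, and without it the level was 6.86 ± 1.64 FPKM, an interval that overlapped those of 60 h and 168 h.

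Phka2, the alpha gene of liver, had 6.16 ± 1.69, 8.63 ± 1.14, 9.02 ± 1.10 and 6.35 ± 0.701 FPKM in time order and was not called. Phka1 therefore made up 30.4% of the alpha genes' FPKM in growth, 42.8% at 60 h, 53.8% at 120 h and 55.9% at 168 h. The interval of the share at 168 h, 52.3 to 59.8%, lay above that of growth, 23.7 to 39.7%.

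Phka1 was assembled with and without an exon of 177 bases, which is coding exon 19 of 33 in the annotation. A form of the subunit known as alpha prime, which lacks an internal stretch of the protein, has been described in rabbit slow muscle and heart. Transcripts without the exon were not assembled in growth, reached 1.21 ± 0.371 FPKM at 60 h and 3.20 ± 1.24 FPKM at 120 h, and were not assembled at 168 h. They made up 0, 18.8, 46.7 and 0% of the spliced Phka1 transcripts in time order. At 60 h the same transcript also lacked 237 bases of 2 further exons. At 168 h, the library with the most Phka1 fragments (2151), only the transcript with all 33 exons was assembled, and what set the assembly of the shorter form was not tested. The exon is shown because its length divides by 3, and 1 annotated transcript lacks it while 6 hold it. Capitals mark the exon and lower case the 10 bases on either side in the mRNA, from the GENCODE transcripts on GRCm38, chrX:102557096-102557272 on the minus strand.
Phka1 exon 19: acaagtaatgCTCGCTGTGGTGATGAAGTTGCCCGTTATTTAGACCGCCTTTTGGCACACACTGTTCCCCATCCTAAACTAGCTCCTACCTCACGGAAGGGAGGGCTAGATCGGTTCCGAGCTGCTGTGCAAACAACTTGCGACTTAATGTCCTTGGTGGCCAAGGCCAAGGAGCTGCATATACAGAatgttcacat

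Phkg1 encodes the muscle form of the catalytic gamma subunit of phosphorylase kinase. It was near the detection limit throughout, with 0.716 ± 0.640 FPKM in growth, 0.476 ± 0.480 FPKM at 60 h, 1.13 ± 0.652 FPKM at 120 h and 2.65 ± 1.43 FPKM at 168 h. These rested on 5, 4, 12 and 38 fragments in pieces of at most 3 exons. The 168 h sum was 3.70-fold that of growth, but the 2 intervals overlapped and the difference was not called; with libraries scaled by median ratios it was, at a log2 ratio of 1.19. Over the union of exons the level was 0.658 ± 0.214 FPKM at 168 h and 0.133 ± 0.119 FPKM in growth. Phkg2, the other gamma gene, known from liver and testis, had between 7.73 ± 1.11 FPKM at 60 h and 10.9 ± 2.27 FPKM at 120 h and was not called. At most 21.6% of the gamma genes' FPKM came from Phkg1, at 168 h by the sum, and 6.90% there over the union of exons.

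Phkb, the only beta gene, was called higher at 60 h and at 168 h than in growth by all 3 measures. It had 3.11 ± 1.07, 9.31 ± 1.26, 14.9 ± 3.08 and 7.50 ± 0.849 FPKM in time order, with 7.61 FPKM at 120 h through the introns. Of the alpha, beta and gamma genes, the muscle alpha gene Phka1 and the beta gene were thus called higher at 168 h than in growth, while the 2 gamma genes and Phka2 were not called.

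Gys1 encodes the glycogen synthase of muscle and most other tissues, which adds glucose units to growing chains. It lies on chromosome 7 from base 52690137 to base 52712090 on the plus strand and was assembled as a transcript of 16 exons in all 4 libraries. Gys1 had 20.8 ± 0.872 FPKM in growth, 95.8 ± 3.03 FPKM at 60 h, 109 ± 2.19 FPKM at 120 h and 116 ± 1.68 FPKM at 168 h. The intervals did not overlap between any pair of libraries. The step at 60 h, 4.60-fold above growth (log2 ratio 2.15), was the only one past the limit, and 168 h was 5.58-fold above growth (log2 ratio 2.43). At 60 h an added transcript of 8 exons took 11.4 ± 2.53 FPKM, and without it the level was 84.4 FPKM, or 4.06-fold that of growth. No transcript was named Gys2, the liver synthase, in any library, so Gys1 made up 100% of the named synthase FPKM.

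Gbe1 encodes the branching enzyme, which moves stretches of glucose units to make branch points. It lies on chromosome 16 from base 70314246 to base 70569956 on the plus strand. By the sum it had 4.41 ± 1.14 FPKM in growth, 5.16 ± 1.27 FPKM at 60 h, 9.37 ± 1.60 FPKM at 120 h and 4.11 ± 1.54 FPKM at 168 h. The 120 h library stood above the other 3, whose intervals overlapped one another. Gbe1 was the 1 member called lower in any comparison: at 168 h it was 0.439-fold the level at 120 h, with a log2 ratio of -1.02, where 10% of all genes were called lower and 4.09% higher. At 120 h, however, the gene was assembled as a first part of 7 exons and a second part of 9 exons, and the sum counted both. Through the introns Gbe1 had 4.41, 4.47, 4.69 and 2.96 FPKM in time order, and over the union of exons 4.25, 3.97, 3.85 and 2.48 FPKM. By those measures the ratio of 168 h to 120 h was -0.52 and -0.48 on the log2 scale and was not called, where 5.17% and 2.66% of all genes were called lower. The call was lost, too, with libraries scaled by median ratios, at -0.88, or to equal totals, at -0.92.

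Prkaa1 and Prkaa2 encode the alternative catalytic alpha subunits of AMPK. Prkaa1, found in most tissues, lies on chromosome 15 from base 5093793 to base 5129996 on the plus strand. It had 22.8 ± 1.08 FPKM in growth, 14.0 ± 1.02 FPKM at 60 h, 12.5 ± 1.48 FPKM at 120 h and 13.6 ± 1.41 FPKM at 168 h. Growth was above the 3 later libraries, whose intervals overlapped one another. The level at 60 h was 0.616-fold that of growth (log2 ratio -0.66) and at 168 h 0.599-fold (log2 ratio -0.70). Neither passed the 2-fold limit, and over the union of exons the ratios were -0.65 and -0.67.

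Prkaa2, the alpha gene most used in muscle, heart and liver, lies on chromosome 4 from base 104707622 to base 104782445 on the minus strand. By the sum it had 2.40 ± 1.35 FPKM in growth, 3.82 ± 0.750 FPKM at 60 h, 9.03 ± 1.71 FPKM at 120 h and 8.09 ± 1.11 FPKM at 168 h. The 120 h and 168 h libraries overlapped each other and stood above the other 2, which overlapped each other. In growth the value came from 17.0 fragments in 4 pieces, of which 3 had 1 exon. In the later libraries the gene was assembled as a 2-exon part and a 7-exon part that were joined in none of them, with a further piece of 1 exon at 120 h and at 168 h. Through the introns Prkaa2 had 0, 2.30, 3.89 and 4.42 FPKM in time order, and over the union of exons 0.216, 2.17, 3.24 and 3.52 FPKM.

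Where Prkaa2 changed in time depended on the measure. By the sum it was called higher at 120 h than at 60 h, with 2.37-fold and a log2 ratio of 1.06, the 1 member so called where 12.4% of all genes were higher and 3.78% lower, and not at 60 h against growth, with a log2 ratio of 0.50. Over the union of exons it was called at 60 h against growth, with a log2 ratio of 1.38, and not at 120 h against 60 h, with a log2 ratio of 0.42. Through the introns 4.18% of all genes were called higher in that step. At 168 h against growth it was called by all 3 measures, with 3.37-fold by the sum and 16.3-fold over the union of exons. The share of Prkaa2 among the alpha genes was 9.54% in growth, 21.4% at 60 h, 41.9% at 120 h and 37.2% at 168 h by the sum. Over the union of exons it was 0.974, 13.7, 21.1 and 20.8%, so Prkaa1 was the larger alpha gene in every library by both. With libraries scaled by median ratios or to equal totals, the ratio of 120 h to 60 h was 0.89 or 0.87 and was not called.

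**Figure D3:**
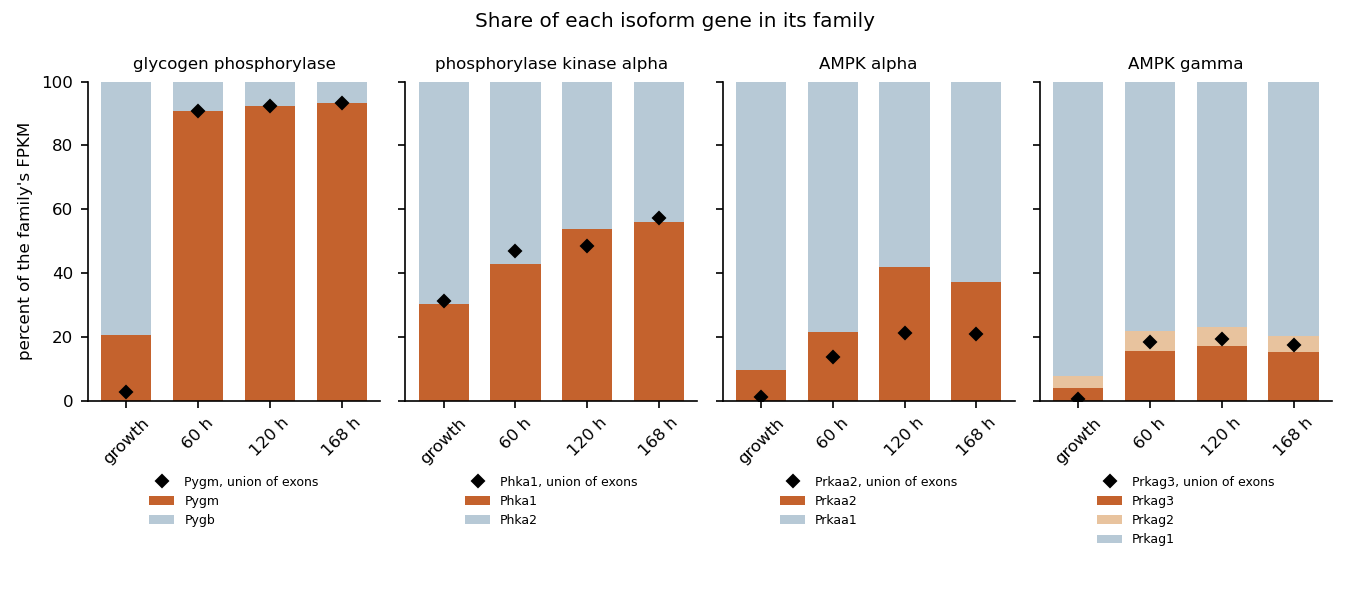
Share of each gene in its family's FPKM (vertical axis, percent, stacked bars by the sum) in the growth, 60 h, 120 h and 168 h libraries, for the genes that were assembled. Diamonds give the share of the lowest gene of each stack over the union of exons: for Prkaa2 they end at 20.8% at 168 h where the bar ends at 37.2%.

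Prkaa1 was also assembled without an exon of 94 bases, coding exon 3 of 9, in the 3 later libraries. That form had 0.950 ± 0.586 FPKM at 60 h, 1.21 ± 0.909 FPKM at 120 h and 2.00 ± 0.926 FPKM at 168 h with no such transcript in growth, the library with the highest Prkaa1 level. It made up 0, 6.77, 9.64 and 14.6% of Prkaa1 in time order, and the intervals of the 3 later levels overlapped. The exon's length leaves 1 base after division by 3, and none of the annotated transcripts lacks it. The exon, in capitals between 10 bases of its neighbours, is at chr15:5164712-5164805 on the plus strand of GRCm38.
Prkaa1 exon 3: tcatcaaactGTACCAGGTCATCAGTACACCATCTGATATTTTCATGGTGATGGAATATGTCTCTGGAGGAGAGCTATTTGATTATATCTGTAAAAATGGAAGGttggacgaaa

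Prkag1, Prkag2 and Prkag3 encode the gamma subunits, which bind AMP, ADP and ATP. Prkag1, the form of most tissues, had 97.9 ± 5.86 FPKM in growth, 65.4 ± 2.35 FPKM at 60 h, 60.3 ± 2.34 FPKM at 120 h and 74.8 ± 2.03 FPKM at 168 h. It had the highest level of the 9 genes in growth. The 60 h level was 0.668-fold that of growth (log2 ratio -0.57) and the 168 h level 0.764-fold (log2 ratio -0.38), short of the limit. The growth interval lay above those of the 3 later libraries, and 168 h lay above 60 h and 120 h.

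The 5' end of Prkag1 was assembled differently between libraries. The gene lies on chromosome 15 from base 98643110 to base 98661911 on the minus strand. In growth 88.5% of its FPKM, and at 60 h 94.2%, came from a transcript whose first exon ends at base 98661861. At 120 h all of it came from a transcript whose first exon ends at base 98661318, which had 11.5% in growth and 5.79% at 60 h. At 168 h the transcript had 11 exons, with its first exon ending at base 98656119, and lacked the first exon of the other libraries. Whether the RNA itself began elsewhere was not tested.

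Prkag3 encodes the gamma form found mainly in skeletal muscle. It lies on chromosome 1 from base 74785045 to base 74796010 on the minus strand. Prkag3 had 4.18 ± 1.55 FPKM in growth, 12.9 ± 0.571 FPKM at 60 h, 13.4 ± 2.07 FPKM at 120 h and 14.3 ± 1.75 FPKM at 168 h. Growth was below the other 3, which overlapped one another. The sum was 3.09-fold higher at 60 h than in growth (log2 ratio 1.43) and 3.42-fold higher at 168 h than in growth (log2 ratio 1.56). In growth it rested on 49.0 fragments in 5 pieces. Through the introns the growth level was 0.508 FPKM and the ratios 25.4-fold at 60 h and 28.2-fold at 168 h. As for Pygm, the calls were the same by all 3 measures and the fold was not. In the 3 later libraries an unnamed transcript of 2 exons lay over exons of Prkag3 on the opposite strand, and the protocol does not mark strand, so their fragments cannot be told apart. Of sampled 50-base words, 4 of 279 in Prkag3 and 7 of 233 in Phkg1 occurred in other genes, and 0 of those in Gys1, Phka1, Gbe1, Prkaa1, Prkaa2 and Prkag1.

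Prkag3 made up 3.94% of the gamma genes' FPKM in growth, 15.4% at 60 h, 17.0% at 120 h and 15.2% at 168 h by the sum. Over the union of exons its share was 0.594, 18.3, 19.2 and 17.3%. By the sum Prkag1 made up 92.3, 78.1, 76.9 and 79.6%, and Prkag2, known from heart and other tissues, 3.75, 6.50, 6.02 and 5.19%. Over the union of exons the share of Prkag2 was 3.38, 3.32, 3.27 and 2.93%. Prkag1 was thus the main gamma gene throughout. The scaffold genes, Prkab1 and Prkab2, were not called at 60 h or 168 h against growth by the sum. Prkab1, the form of most tissues, had 36.1 ± 3.14, 19.6 ± 1.72, 18.4 ± 1.96 and 26.6 ± 2.19 FPKM in time order. Prkab2, the form common in muscle, had 11.1 ± 1.04, 6.58 ± 0.334, 15.0 ± 1.51 and 16.4 ± 3.02 FPKM by the sum, and 4.54, 6.58, 7.11 and 8.59 FPKM through the introns.

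A form of Prkag3 without a 40-base coding exon was assembled at 120 h with 1.57 ± 1.38 FPKM and at 168 h with 2.00 ± 1.19 FPKM, 11.8 and 14.0% of the gene, and not in growth or at 60 h. The exon is number 2 of 14 in the annotation, where 4 transcripts hold it and 0 lack it. Its length, too, is no multiple of 3. It is at chr1:74748472-74748511 on the minus strand of GRCm38, shown in capitals between 10 bases of its neighbours.
Prkag3 exon 2: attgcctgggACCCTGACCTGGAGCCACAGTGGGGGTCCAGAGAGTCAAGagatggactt

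Set side by side per length by the sum, the 9 genes changed order between growth and 168 h. In growth Prkag1 was highest, with Prkaa1 and Gys1 next at 22.8 and 20.8 FPKM, with intervals that just overlapped. Below them came Pygm, Gbe1, Prkag3, Phka1, Prkaa2 and Phkg1, each with an interval that overlapped that of the next. This lower order depended on the measure. Through the introns Gbe1 had 4.41 and Phka1 2.69 FPKM in growth, above Pygm at 0.904, Prkag3 at 0.508 and Prkaa2 at 0 FPKM. At 168 h Pygm was highest, then Gys1 and Prkag1. Prkag3 and Prkaa1 overlapped at 14.3 and 13.6 FPKM, as did Prkaa2 and Phka1 at 8.09 and 8.07 FPKM, and Gbe1 and Phkg1 at 4.11 and 2.65 FPKM. Through the introns Prkaa2 was below Phka1 at 168 h, with 4.42 against 8.07 FPKM, and Phkg1 below Gbe1, with 0.367 against 2.96 FPKM. In a bulk culture, a larger fraction of cells that use a gene and more of its RNA per cell cannot be told apart.

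**Figure D4:**
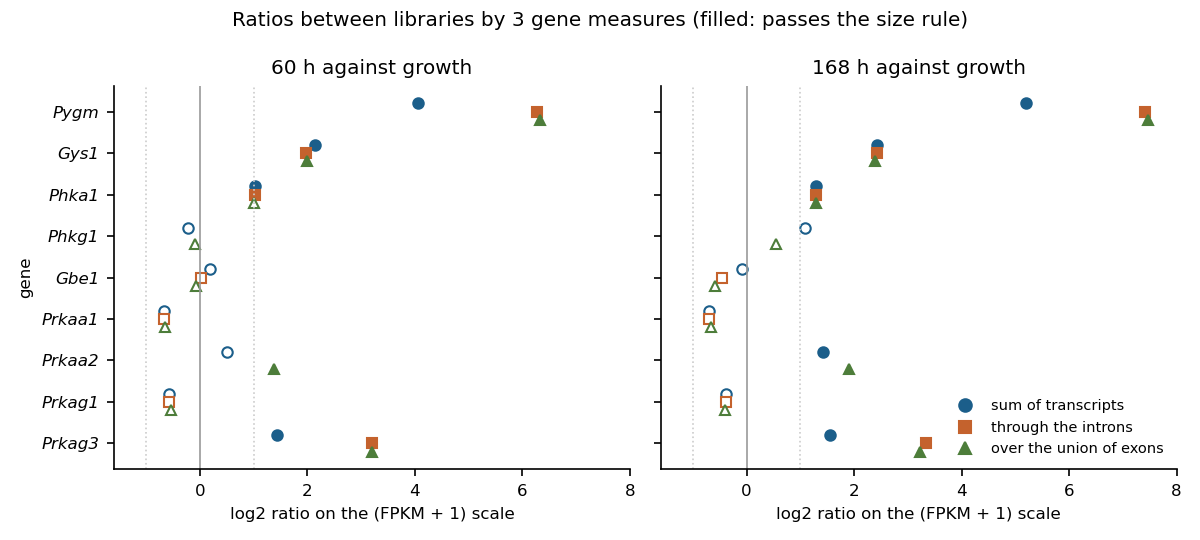
Log2 ratios on the (FPKM + 1) scale (horizontal axis) of the 9 genes (vertical axis) at 60 h against growth and at 168 h against growth, by 3 measures: the sum, the introns and the union of exons. Filled symbols pass the size rule, and no symbol is drawn through the introns where the growth value is 0, as for Prkaa2 and Phkg1. Pygm lies farthest to the right in both panels, at 4.06 and 5.20 by the sum.

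Promoter sequence was compared because 4 genes were called higher together at 60 h. All 9 members matched a RefSeq promoter window on GRCm38.p6, from 250 bases before to 50 bases after the annotated start. The motifs were chosen after the values of the genes were known. They are the E-box CAGCTG, which reads alike on both strands and is bound by myogenic factors such as MyoD, a second E-box, the MCAT element, the MEF2 box and the CArG box, each sought on both strands. CAGCTG was in the windows of Pygm, Gys1, Phka1 and Prkag3 and in none of the other 5, and in 16.3% of all 32851 windows. The 4 with it are the 4 genes called by the sum at 60 h, and Prkaa2, called by other measures, has none. Phka1, which has it, was not called over the union of exons. The second E-box, spelled CACCTG, was in Phkg1 and Gbe1 and in 20.2% of all windows. The MCAT element, spelled CATTCC, the MEF2 box and the CArG box were in 0 of the 9, and in 14.7, 3.19 and 1.63% of all windows. A match is a description of letters, not a site. The 4 windows with CAGCTG follow, with the motif in capitals, at chr19:6384158-6384457 on the plus strand for Pygm, chr7:45434589-45434888 on the plus strand for Gys1, chrX:102644197-102644496 on the minus strand for Phka1 and chr1:74748906-74749205 on the minus strand for Prkag3.
Pygm: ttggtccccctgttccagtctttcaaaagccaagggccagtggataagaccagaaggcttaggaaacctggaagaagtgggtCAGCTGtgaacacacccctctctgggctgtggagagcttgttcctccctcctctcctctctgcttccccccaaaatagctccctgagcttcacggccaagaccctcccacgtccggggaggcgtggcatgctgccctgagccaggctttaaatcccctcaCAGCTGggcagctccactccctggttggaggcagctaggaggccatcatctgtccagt
Gys1: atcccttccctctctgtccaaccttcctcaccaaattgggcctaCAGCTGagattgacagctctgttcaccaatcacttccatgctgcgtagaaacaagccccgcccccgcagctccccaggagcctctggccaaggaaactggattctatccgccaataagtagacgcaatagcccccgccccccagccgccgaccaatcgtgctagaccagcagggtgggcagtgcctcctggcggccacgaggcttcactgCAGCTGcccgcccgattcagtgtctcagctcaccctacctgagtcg
Phka1: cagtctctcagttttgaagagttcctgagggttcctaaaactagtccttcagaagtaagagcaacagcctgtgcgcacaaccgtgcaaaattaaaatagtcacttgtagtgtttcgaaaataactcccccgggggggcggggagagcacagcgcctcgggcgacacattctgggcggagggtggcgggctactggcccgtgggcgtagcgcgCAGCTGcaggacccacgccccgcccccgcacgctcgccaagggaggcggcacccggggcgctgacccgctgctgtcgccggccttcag
Prkag3: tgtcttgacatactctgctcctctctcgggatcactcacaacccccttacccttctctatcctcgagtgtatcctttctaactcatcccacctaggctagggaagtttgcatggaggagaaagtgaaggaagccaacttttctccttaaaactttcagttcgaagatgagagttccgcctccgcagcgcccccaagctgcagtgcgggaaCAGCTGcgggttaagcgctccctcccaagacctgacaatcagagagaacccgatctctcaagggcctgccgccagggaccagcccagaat
Counted from the annotated start, CAGCTG began at -168 and -8 in Pygm, at -206 and 4 in Gys1, at -38 in Phka1 and at -40 in Prkag3. In the later libraries Prkag3 was assembled with 15 exons, the first of them joined by an intron that was not named. Placed by distance from the 40-base exon found in both, the annotated start of Prkag3 lies within the exon after that intron. So does its motif at -40, and neither lies before the assembled transcript.

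The genes most like each of the 4 in pattern were sought among 7301 protein-coding genes, by the distance between centred log2(FPKM + 1) values over the 4 libraries. For Pygm these were Lrmda, Cdsn and Tmem38a, at distances of 0.25, 0.29 and 0.33. For Gys1 they were Tmbim1, Hspb2 and Tgfb3, at 0.10, 0.12 and 0.13. For Phka1 they were Rab40b, Mapk8ip3 and Pgm1, at 0.07, 0.10 and 0.13, and for Prkag3 Sparc, Nudt18 and Stradb, at 0.04, 0.04 and 0.12. Pgm1 and Stradb also belong to the lists of pathway genes below. The search used the sums, which in growth were 7.87 FPKM for Pygm and 4.18 FPKM for Prkag3. Through the introns these were 0.904 and 0.508 FPKM, so their nearest genes rest on how the growth pieces were counted. Likeness by the other measures was not tested.

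Other genes of glycogen and AMPK biology were listed by role under 44 names, of which 36 could be compared. At 60 h against growth 9 were called higher and 2 lower, and at 168 h against growth 11 were called higher and 3 lower. Of all genes 11.0% were called higher and 15.4% lower at 60 h, and 15.5% higher and 18.5% lower at 168 h. The median log2 ratio of the 36 was 0.33 and 0.32 in these comparisons, beside -0.19 and -0.11 over all genes. At 120 h against 60 h 7 were higher and 1 lower, where 12.4% of all genes were higher and 3.78% lower, and at 168 h against 120 h 0 were higher and 3 lower, where 4.09% of all genes were higher and 10% lower. As with Gbe1 and Prkaa2, calls that involve the 120 h library depended on the measure: those on Hk2, Prkab2, Ugp2, Calm2, Ppp1r3f, Epm2a, Acacb and Tbc1d4 were lost over the union of exons. Cab39 kept its call over the union of exons and not through the introns, and Camkk1, listed at 0 at 168 h, kept its call by both.

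Around the synthase, glycogenin (Gyg), the protein primer of the glycogen particle, had 69.2 ± 1.85 FPKM at 168 h and 18.8 ± 4.27 FPKM in growth. Pgm1, a phosphoglucomutase, had 85.8 ± 1.82 FPKM at 168 h and 30.7 ± 1.35 FPKM in growth. Both were called higher at 60 h and at 168 h than in growth by all 3 measures. Pgm2, a related mutase, was called lower, with 4.54 ± 0.448 FPKM at 168 h and 20.1 ± 1.15 FPKM in growth. Ugp2, which makes the UDP-glucose that synthase uses, and the synthase kinases Gsk3a and Gsk3b were not called against growth. Of the glycogen-targeting subunits of protein phosphatase 1, no transcript was named Ppp1r3b, Ppp1r3c, Ppp1r3d or Ppp1r3e in any library. Genes with few introns offer few lengths to match, so their RNA may have gone unnamed.

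Around the phosphorylase, the lysosomal glucosidase Gaa had 114 ± 1.73 FPKM at 168 h and 25.9 ± 2.28 FPKM in growth, and Stbd1, which binds glycogen, 125 ± 2.43 and 39.3 ± 1.69 FPKM. Both were called higher at 60 h and at 168 h than in growth by all 3 measures. Calls on Epm2a, the glycogen phosphatase laforin, turned on the measure: by the sum it was called lower at 60 h, with 0.853 ± 0.163 FPKM against 3.23 ± 2.13 FPKM in growth, and through the introns growth was at 0.

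Around AMPK, the upstream kinase Stk11 was not called, with 44.2 ± 1.94 FPKM at 168 h and 32.1 ± 1.90 FPKM in growth. Stradb, a pseudokinase partner of Stk11, was called higher at 60 h and 168 h than in growth, with 16.5 ± 0.813 FPKM at 168 h and 5.08 ± 1.29 FPKM in growth. Ulk1, an autophagy kinase that AMPK phosphorylates, was called higher at 168 h, with 24.5 ± 1.79 FPKM against 9.63 ± 0.510 FPKM in growth. The calls on Cab39, Cab39l, Camkk1, Acaca and Acacb differed between measures. Of the genes of glucose entry, the muscle glucose transporter Slc2a4 had 24.2 ± 0.943 FPKM at 168 h and 2.68 ± 1.38 FPKM in growth, and the hexokinase Hk2 67.6 ± 1.61 and 11.1 ± 0.532 FPKM. Over the union of exons Slc2a4 had 22.7 FPKM at 168 h and 0.279 FPKM in growth, and Hk2 35.6 and 11.1 FPKM. Both genes were called higher at 60 h and 168 h by all 3 measures, and Slc2a1 and Hk1 were not called.

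**Figure D5:**
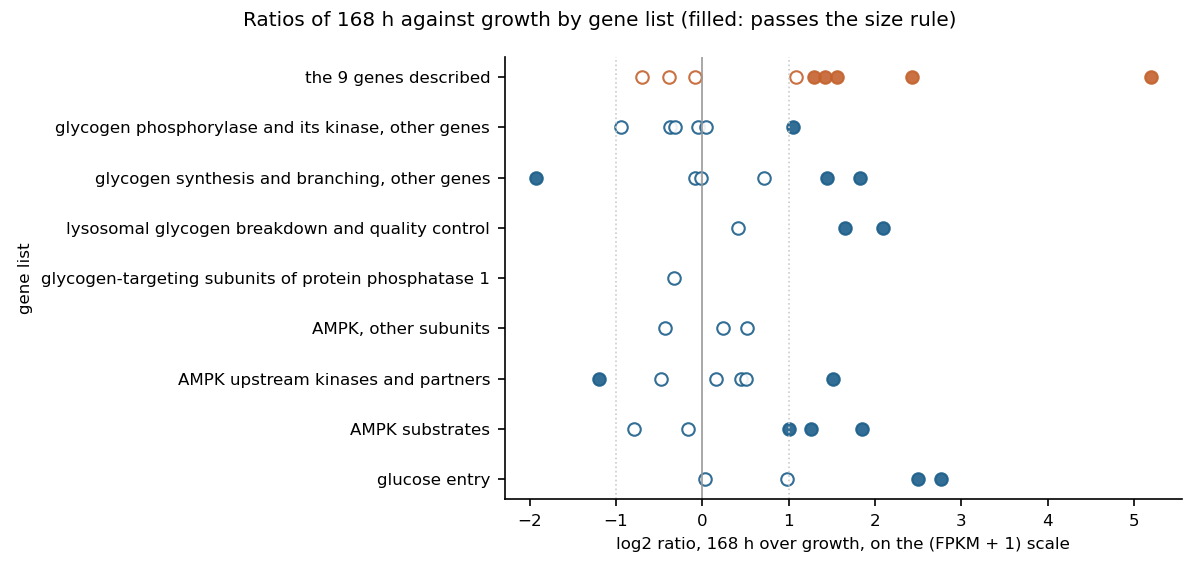
Log2 ratios of 168 h over growth on the (FPKM + 1) scale (horizontal axis) for the 9 genes and for each list of other pathway genes (rows), with filled points for genes past the size rule. Genes assembled in both libraries are drawn, and Pygm, at 5.20, is the farthest point to the right.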

How the data were processed

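Polyadenylated RNA was broken by heat, primed with random hexamers and sequenced as paired ends without marking strand, as the labels' protocols say, at 4 times with 1 library each. The authors deposited assembled transcripts with an RPKM, here called FPKM because it counts fragments, and its confidence limits. These are given per the file headers of each line, which name Cufflinks. The submitters' processing notes name TopHat 1.0.13 and Cufflinks 0.8.0, without saying what each did. No source names the build of the coordinates.

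Library sizes were recovered from the limits at loci with a single transcript, which lie 2 square roots of the fragment count from the value. Between 93.6 and 94.5% of transcripts at such loci with at most 50 fragments then held a whole count within 0.01. Loci with several transcripts were not part of this check. From 86.9 to 89.7% of fragments lay in assembled transcripts. The median named gene's limit, by the sum, was 10.2% of its value away at 60 h and 14.4% at 120 h.

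Genes were named by lengths alone against GENCODE release M21 (GRCm38), and coordinates of the 2 were not mixed in naming. The annotated start of Prkag3 was set beside its assembled exons by distance from an exon found in both. Runs of lengths named 121754 of 137519 introns, 3867 more lay beside named ones, and 2421 were named between named introns, where lengths shifted by 7 bases matched 0.759% of the time. A transcript of 1 exon was given to a gene that covered at least 50% of it. The deposited score column was not used.

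The genes and lists were chosen with earlier results of these data known. Named were all 9 members, the isoforms of their families, any other listed gene called in at least 1 comparison, and the 3 protein-coding genes of nearest pattern with at least 10 FPKM. Some listed pathway genes are not reported here. Genes outside this rule are named as not called or without a transcript. With 1 library a time there was no test: the size rule (2-fold on log2(FPKM + 1), 1 FPKM, intervals apart) was applied to all genes. Alternatives were a pseudocount of 0.1, no minimum or 5 FPKM, 4-fold, median-ratio scaling over 10720 genes, equal totals, multi-exon transcripts alone, the FPKM through the introns and the FPKM of the union of exons. Promoters are from RefSeq (GRCm38.p6). Python 3.11.15 and matplotlib 3.10.9 were used.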

Additional observations from a re-analysis of the deposited data

Results flagged for a closer look

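An unnamed transcript of 2 exons was assembled over exons of Prkag3 on the opposite strand in the 3 later libraries, outside the values reported for the gene. It had 4.34 ± 1.28 FPKM at 60 h, 8.96 ± 2.77 FPKM at 120 h and 4.0 ± 1.18 FPKM at 168 h, and none was assembled in growth. Of its 455 bases at 60 h, 378 lay within exons of Prkag3, as did 373 of 379 bases at 120 h and 378 of 538 bases at 168 h. Prkag3 itself had 12.9, 13.4 and 14.3 FPKM in these libraries. What it is was not tested.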

How the results depend on the processing

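No paired analysis was possible because each time point has 1 library. No called log2 ratio changed sign. Of those not called, Gbe1 at 60 h against growth was 0.19 by the sum and -0.08 over the union of exons, and at 168 h against growth -0.08 by the sum and 0.08 with median-ratio scaling. At 120 h against 60 h Gys1 was 0.18 by the sum, -0.01 with median-ratio scaling and -0.03 with equal totals, Prkag3 0.04, -0.14 and -0.16, and over the union of exons Phka1 was -0.05 and Gbe1 -0.03, where the sum gave 0.62 and 0.75. At 168 h against 120 h Phka1 was -0.34 by the sum, 0.21 with multi-exon transcripts alone, 0.21 through the introns and 0.35 over the union, and Prkaa2 -0.14 by the sum, 0.15 through the introns and 0.09 over the union. Under the alternatives 58 counts of called genes stayed the same or nearly so and 14 did not, and 294 ratios of single genes stayed on their side of the rule while 17 fell below it and 3 passed it. Comparisons with a library at 0 have no ratio and are not among these: Prkaa2 was called higher at 60 h and at 168 h than in growth through the introns, and Phkg1 at 168 h than at 120 h and in growth with multi-exon transcripts alone. With 4-fold in place of 2-fold, 2 members were called higher at 60 h against growth (Pygm and Gys1), 2 at 168 h against growth, 0 higher at 120 h against 60 h and 0 lower at 168 h against 120 h. The single calls at 120 h against 60 h (Prkaa2) and at 168 h against 120 h (Gbe1) fell to 0 with median-ratio scaling, equal totals, the FPKM through the introns and that of the union of exons, and the first also with multi-exon transcripts alone, which called 1 gene higher at 168 h against 120 h, Phkg1. The pseudocount and the minimum changed no count by over 1.5 times. Scaling by median ratios put the median of all genes at 0.02 for 60 h against growth and 0.06 for 168 h against growth, where it was -0.19 and -0.11, and equal totals put it at -0.16 and -0.19.

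Shares within families moved beyond their limits under other measures, given in the order multi-exon alone, introns and union where each moved. The share of Pygm in growth was 11.6, 2.87 and 2.61%. That of Phkg1 was 0 and 0% in growth and 0 and 0% at 120 h by the first pair, and 4.0 and 6.90% at 168 h by the last pair. That of Prkaa2 was 2.75, 0 and 0.974% in growth, and by the last pair 14.1 and 13.7% at 60 h, 23.7 and 21.1% at 120 h and 24.5 and 20.8% at 168 h. That of Prkab2 was 13.6, 11.9 and 13.1% in growth, 27.9, 28.8 and 28.6% at 120 h and 24.4, 26.2 and 23.6% at 168 h. That of Prkag3 was 0.499 and 0.594% in growth by the last pair, and over the union 18.3% at 60 h and 17.3% at 168 h. That of Prkag2 was 3.93, 3.93 and 3.32% at 60 h, 4.32, 4.32 and 3.27% at 120 h, and 3.49 and 2.93% at 168 h by the last pair. That of Prkag1 was 96.1 and 96.0% in growth by the last pair, and 80.2 and 80.2% at 60 h by the first pair. Values from under 100 fragments (Pygm, Prkaa2 and Prkag3 in growth, Phkg1 throughout) are limited by depth.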
